A study of Mus musculus with 6 samples.

Results

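Magnocellular oxytocin and vasopressin neurons were picked out of a single-nucleus RNA sequencing (nucSeq) survey of the mouse hypothalamus on their own transcripts. A nucleus was counted when it held at least 1000 unique molecular identifiers (UMIs, each marking 1 captured transcript), at least 2 UMIs of the neuronal genes Snap25, Syt1 and Rbfox3 together, at least 1 of Caprin2, at least 1 of Otp and Sim1 together, and at least 10 of the hormone genes Oxt and Avp together per 10000 of its UMIs. The rule found 257 nuclei among 34707 that passed its neuronal part, 39665 with at least 1000 UMIs and 39953 barcodes in all. These 8 genes chose the nuclei, so their levels are given as a description, without a test.

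The tissue came from male C57Bl/6 wild-type mice of 6 to 8 weeks on chow. In the ad libitum fed group 12 mice made up 2 pools of 6, prepared on separate days. The fasted group was 1 pool of 6 mice without food for 16 h overnight. Nuclei stained with the DNA dye DRAQ5 were sorted by size and granularity into 2 tubes a pool, and each tube gave 1 droplet library, so there were 4 ad libitum fed and 2 fasted libraries. The labels do not say which ad libitum fed libraries share a pool, and with 1 fasted pool the effect of the fast and that of the pool cannot be told apart. The rule found 49, 37, 59 and 57 magnocellular nuclei in ad libitum fed libraries 1 to 4, and 29 and 26 in fasted libraries 1 and 2. Libraries 1 to 4 below are the ad libitum fed ones.

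Magnocellular neurons lie in the paraventricular and supraoptic nuclei and send axons to the posterior pituitary, where they release oxytocin or vasopressin into the blood. Oxytocin acts in birth and milk ejection, and vasopressin makes the kidney retain water. Each hormone is cut from a longer precursor that also holds a neurophysin, its carrier in the dense core granule, and the precursor enzymes, granins and release factors of that granule are therefore part of how these cells work. Otp, Sim1 and Pou3f2 are transcription factors on which the development of these neurons depends, and Caprin2 encodes an RNA-binding protein known to bind vasopressin transcripts.

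The 2 hormone genes are neighbours that are read towards each other. In GRCm38, Oxt (ENSMUSG00000027301) spans chr2:130576173-130577054 on the plus strand and Avp (ENSMUSG00000037727) spans chr2:130580620-130582554 on the minus strand, with 3565 bases between them. The nuclei were separated on UMIs counted for each gene as a whole. The 27 bases that encode the hormone itself are shown as a description, and whether any read covered them was not examined. They lie in exon 1 of 3, at codons 20 to 28 of the 125 of the Oxt precursor (chr2:130576267-130576293) and at codons 24 to 32 of the 168 of the Avp precursor (chr2:130582446-130582472), in the GENCODE M21 annotation. Capitals mark the 5 bases that differ, which fall in 3 codons and change amino acids 3 and 8 of the hormone.
Oxt hormone codons: tgctacAtccagaactgcccCCTGggc
Avp hormone codons: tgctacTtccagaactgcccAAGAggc

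The 250 bases before each start site are given because most nuclei were dominated by 1 of the 2 genes. The sequences are from RefSeq on GRCm38.p6, and both are written in the direction of the gene. Oxt takes chr2:130575919-130576168 on the plus strand and Avp takes chr2:130582589-130582838 on the minus strand. Searched on both strands, the nuclear receptor core motif AGGTCA was found at 185 bases (forward) and at 166 bases (as TGACCT) upstream of the Oxt start, and the E-box CACGTG was found at 139 bases upstream of the Avp start. These matches are in capitals. The core motif was not found in the Avp window and the E-box was not found in the Oxt window. Of 32851 promoter windows, 14.02% held the core motif and 6.02% the E-box. The cAMP response element TGACGTCA, held by 1.55% of the windows, was in neither. A match describes the letters only.
Oxt promoter: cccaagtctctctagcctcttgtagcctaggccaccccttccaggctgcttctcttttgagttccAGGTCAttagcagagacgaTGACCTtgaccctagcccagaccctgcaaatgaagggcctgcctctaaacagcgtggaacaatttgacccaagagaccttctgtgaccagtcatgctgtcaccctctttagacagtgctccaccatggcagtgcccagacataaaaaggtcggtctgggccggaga
Avp promoter: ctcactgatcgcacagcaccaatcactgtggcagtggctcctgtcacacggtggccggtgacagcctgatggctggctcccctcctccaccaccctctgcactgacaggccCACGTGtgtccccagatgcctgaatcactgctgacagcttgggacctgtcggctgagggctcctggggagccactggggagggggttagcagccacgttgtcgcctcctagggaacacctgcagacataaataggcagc

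Ad libitum fed libraries 3 and 4 stood apart from the other 4 libraries in the magnocellular nuclei. The median magnocellular nucleus held 5594 and 5628 UMIs in libraries 1 and 2, 9333 and 11002 in libraries 3 and 4, and 8443 and 8074 in the fasted libraries. The share of their UMIs from ribosomal protein genes was 0.518% and 0.528% in libraries 1 and 2, 2.49% and 2.25% in libraries 3 and 4, and 0.234% and 0.246% in the fasted pair. Mitochondrially encoded genes took 0.0766% and 0.0505%, then 0.270% and 0.309%, and 0.00975% and 0.0180% in the same order. Across genes, which are not independent replicates, the summed profiles on the log2(CPM + 1) scale, where CPM is UMIs per 1000000, correlated at 0.856 between libraries 1 and 2 and at 0.946 between libraries 3 and 4, against 0.712 between libraries 1 and 3. Library 1 correlated with fasted library 1 at 0.8292. Libraries 3 and 4 were therefore also left out together, and so were libraries 1 and 2, a choice made after seeing the data. Between 5 and 17 cell barcodes were shared by any pair of libraries, 154 over the 15 pairs.

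The hormone transcripts themselves showed the same split. Oxt and Avp together came to a median of 33.8 and 36.6 UMIs per 10000 in magnocellular nuclei of libraries 1 and 2, 489 and 557 in libraries 3 and 4, and 19.8 and 21.6 in the fasted libraries. Libraries 3 and 4 were more than 10-fold above the rest, and the fasted libraries were the lowest. Of the chosen nuclei, 15 and 10 in the fasted libraries held 10 to 20 per 10000, against 7, 8, 2 and 5 in libraries 1 to 4. Nuclei that met the other conditions but held 5 to 10 numbered 6, 8, 23 and 36 in libraries 1 to 4 and 4 in each fasted one. The lowest nucleus inside it held 13.1, 11.2, 16.3 and 10.3 per 10000 in libraries 1 to 4 and 10.5 and 10.1 in the fasted ones. The highest nucleus just outside it that met the other conditions held 9.23, 9.63, 8.91 and 9.97, and 9.72 and 9.76. A stricter threshold of 50 per 10000 kept 14, 12, 56 and 51 nuclei in libraries 1 to 4 and 2 in each fasted one, 137 in all.

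The nuclei were checked against genes outside the rule. Crh and Trh, the releasing hormones of parvocellular paraventricular neurons, summed to 3.42, 4.63, 150 and 60.9 CPM in libraries 1 to 4 and to 7.80 and 0 CPM in the fasted ones, with Trh the more abundant on average at 37.1 CPM. Vip, Rgs16, Six6 and Prok2, which mark suprachiasmatic neurons that also use Avp, summed to between 0 and 20.8 CPM. Slc17a6, the glutamate transporter of excitatory neurons, was the most abundant of the fast transmitter genes at 69.4 CPM. Among non-neuronal markers, the 6 oligodendrocyte genes summed to 95.7, 41.7, 89.4 and 78.2 CPM in libraries 1 to 4 and to 164 and 90.0 CPM in the fasted ones, with Mbp the most abundant at 45.1 CPM. Astrocyte, oligodendrocyte precursor, pars tuberalis, endothelial and mural markers stayed between 0 and 17.1 CPM, and microglia, tanycyte and ependymal markers between 4.28 and 64.8 CPM. Agrp and Npy of the arcuate nucleus summed to between 12.9 and 76.8 CPM and Pomc stood between 17.1 and 91.3 CPM. Both were lowest in the fasted libraries, and their part in the results below was not tested. Of the 257 nuclei, 7 were among the 5% of nuclei with the highest doublet score in their library.

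**Figure D1:**
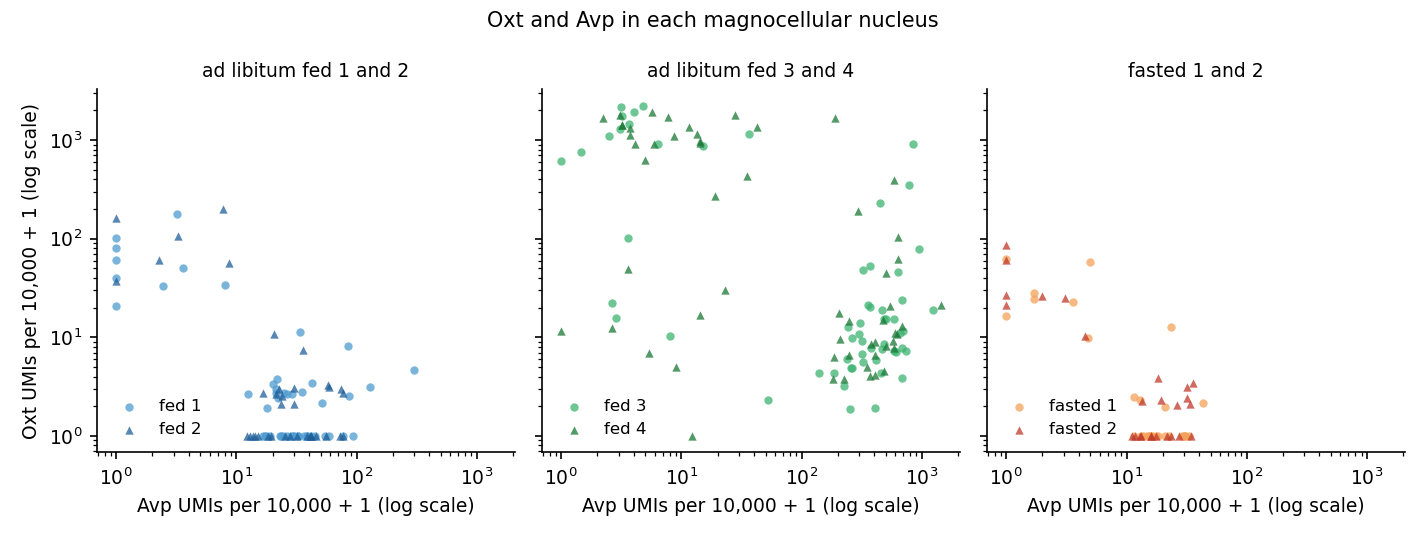
Oxt (vertical axis) against Avp (horizontal axis) in each magnocellular nucleus, in UMIs per 10000 UMIs of the nucleus plus 1 on log axes, with 1 panel for each pair of libraries, 1 point a nucleus and 1 colour a library. Most points lie near 1 of the 2 axes, and the nuclei of libraries 3 and 4 reach the highest values.

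Most magnocellular nuclei were dominated by 1 hormone. Calling a nucleus Oxt-leading where Oxt made up at least 0.8 of its Oxt and Avp UMIs, and Avp-leading where it made up at most 0.2, gave 66 Oxt-leading nuclei (25.7%), 176 Avp-leading nuclei (68.5%) and 15 between (5.84%). Of the 257 nuclei, 60 had an Oxt share of at least 0.9 and 167 had one of at most 0.1. Oxt in Oxt-leading nuclei had a median of 49.8, 82.4, 1099 and 1140 UMIs per 10000 in libraries 1 to 4, and of 25.2 and 25.5 in the fasted ones. Avp in Avp-leading nuclei had a median of 28.8, 29.2, 393 and 407, and of 16.6 and 18.3. In both classes the medians of libraries 3 and 4 lay above those of the other 4 libraries, and the fasted libraries were lowest. The highest single nucleus held 4112 Oxt UMIs and the highest for Avp held 2111, both in library 4.

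The second hormone was often present at a low level. At least 1 Avp UMI was found in 51 of 66 Oxt-leading nuclei and at least 1 Oxt UMI in 107 of 176 Avp-leading nuclei. These shares were 93.3% and 95.8% for Avp, and 100% and 96.3% for Oxt, in libraries 3 and 4, and between 19.0% and 66.7% in the other libraries. Oligodendrocyte-like nuclei should make neither hormone and so show the free RNA of the suspension. They carried Oxt in 69 and Avp in 112 of 978. Of the 978, 709 came from the fasted libraries and 14 from each of libraries 3 and 4. Oxt was found in 5 and 11 of these 14 in libraries 3 and 4, and Avp in 6 and 8. Shares over all 978, also given for other genes below, thus rest mostly on the fasted libraries. Oligodendrocyte-like nuclei were shallower, with median depths between 1617 and 4207.5 UMIs a library. As a level, Oxt in the summed Avp-leading nuclei came to 1.13, 0.822, 12.1 and 15.7 UMIs per 10000 in libraries 1 to 4 and to 0.232 and 0.726 in the fasted ones. Oxt in oligodendrocyte-like nuclei came to 0.594, 0.688, 1.21 and 2.65 per 10000, and to 0.135 and 0.166, below the Avp-leading nuclei of the same library in each case. Avp in the summed Oxt-leading nuclei came to 1.60, 2.72, 5.25 and 17.5 per 10000, and to 1.17 and 0.554, against 1.41, 0.983, 1.51 and 1.67, and 0.250 and 0.225, in oligodendrocyte-like nuclei. The cut at 0.2 admits such nuclei by construction, so no order was read from these shares.

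Caprin2, a gene of the rule, is given by class as a description. It stood at 554, 464, 580 and 456 CPM in Avp-leading nuclei of libraries 1 to 4 and at 441 and 478 CPM in the fasted ones. In Oxt-leading nuclei it stood at 230, 321, 162 and 180 CPM, and at 233 and 222 CPM. The rule asks for 1 UMI whatever the depth. The median Oxt-leading nucleus was the deeper, at 10656 against 7610.5 UMIs, so nothing is read from these levels. The part of the Caprin2 condition in the class shares and in these depths was not tested. Sim1 without Otp was found in 153 nuclei, Otp without Sim1 in 16 and both in 88, and 91 nuclei passed on a single Caprin2 UMI.

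The share of magnocellular nuclei among neuronal nuclei is the share that passed the rule, which sets a floor on Oxt and Avp. A lower hormone level alone would lower it. It therefore does not show whether more or fewer of these nuclei were recovered after the fast, and it carries no test. It was 0.655% (95% exact binomial interval 0.485 to 0.866), 0.637% (0.449 to 0.877), 0.946% (0.721 to 1.22) and 0.909% (0.689 to 1.18) in ad libitum fed libraries 1 to 4. In the fasted libraries it was 0.641% (0.430 to 0.920) and 0.592% (0.387 to 0.866). The intervals cover counting error only. At full depth fasted libraries 1 and 2 lay close to libraries 1 and 2, and libraries 3 and 4 were higher. The means were 0.787% ± 0.163 (SD, n = 4) and 0.617% ± 0.0353 (SD, n = 2), a difference of -0.170 percentage points. Here n counts libraries, which are tubes of 2 ad libitum fed pools and 1 fasted pool, so the SD takes tubes of the same pool as separate samples. Nuclei that met the other conditions, whatever their hormone level, numbered 200, 151, 297 and 258 in libraries 1 to 4. These were of 7476, 5810, 6236 and 6269 neuronal nuclei. In the fasted libraries such nuclei numbered 188 and 155, of 4521 and 4395 neuronal nuclei. With each nucleus thinned to 2000 UMIs before the rule was applied, the share was 0.170%, 0.121%, 0.204% and 0.147% in libraries 1 to 4 and 0.0516% and 0.186% in the fasted ones, from 2 to 11 nuclei a library. The order of the libraries was then different, and the difference was -0.0417 points. The share of Oxt-leading among magnocellular nuclei was 18.4%, 16.2%, 25.4% and 42.1% in libraries 1 to 4 and 20.7% and 23.1% in the fasted ones. Its means were 25.5% ± 11.7 (SD, n = 4) and 21.9% ± 1.69 (SD, n = 2), and the direction turned to +1.88 points when library 4 was left out. This share rests on Oxt and Avp, which the rule used, so it is given without a test.

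**Figure D2:**
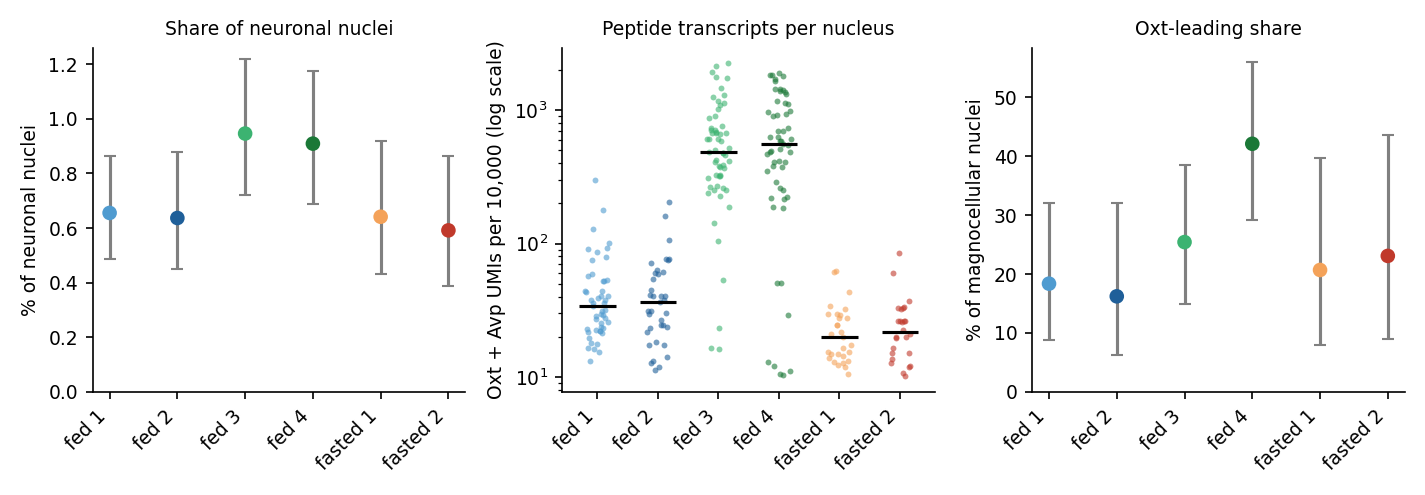
Share of magnocellular nuclei among neuronal nuclei in percent (left), Oxt and Avp together in each nucleus in UMIs per 10000 on a log axis with the median as a bar (middle), and share of Oxt-leading nuclei in percent (right), for the 6 libraries. Error bars are 95% exact binomial intervals, which overlap across the libraries on the left, while the medians of 489 and 557 in libraries 3 and 4 stand above the other 4.

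Oxt-leading nuclei had higher Nos1 and Oprk1, and Avp-leading nuclei had higher Ebf3, Maml3 and Glp1r. Counts were summed by library and class and compared within pools by edgeR's quasi-likelihood test. Since the pools are not labelled, each of the 3 ways of pairing the ad libitum fed libraries was fitted and a gene's largest p was carried into the Benjamini-Hochberg adjustment. Of 6798 genes tested, 160 (2.35%) were higher in Oxt-leading nuclei and 187 (2.75%) were higher in Avp-leading nuclei at an adjusted p below 0.05, and 285 of these 347 had the same direction in 6 of 6 libraries. The median log2 difference over all genes tested was 0.00070. Levels below are CPM of the summed class. The Oxt-leading sums were small, at 40500 UMIs in library 2 and 54118 in fasted library 2, so that a level of 0 in a library does not show absence. A marker of another cell type moved with the class. The 3 tanycyte and ependymal genes summed to 124, 296, 54.1 and 27.4 CPM in Oxt-leading nuclei of libraries 1 to 4 and to 14.6 and 92.4 CPM in the fasted ones, against 3.28 to 11.7 CPM in Avp-leading nuclei. Nearly all of it was Col23a1, with a UMI in 33.3% of Oxt-leading, 3.41% of Avp-leading and 9.54% of the other neuronal nuclei, while Rax and Ccdc153 were found in 1 Oxt-leading nucleus each. Microglia genes summed to 88.6 and 74.1 CPM in Oxt-leading nuclei of libraries 1 and 2, against 17.4 and 17.6 CPM in Avp-leading ones, and to between 0 and 14.6 CPM in Oxt-leading nuclei of the other libraries. Crh and Trh of parvocellular neurons summed to 0, 24.7, 449 and 12.2 CPM in Oxt-leading nuclei of libraries 1 to 4 and to 14.6 and 0 CPM in the fasted ones, against 0 to 19.7 CPM in Avp-leading nuclei, and Oxt-leading nuclei of library 3 thus stood apart. The part of these markers in the results was not tested.

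Among transcription factors, Ebf3 was found almost only in Avp-leading nuclei. Ebf3 (chr7:137193673-137314445, minus strand), an early B-cell factor gene, stood at 292, 311, 192 and 207 CPM in Avp-leading nuclei of libraries 1 to 4 and at 465 and 242 CPM in the fasted ones. In Oxt-leading nuclei it was 0 in 5 libraries and 3.04 CPM in library 4. The classes did not overlap, and the 381 UMIs against 1 UMI gave a ratio of 193 (95% counting interval 34.4 to 7634; edgeR adjusted p = 3.49e-26). At least 1 Ebf3 UMI was found in 136 of 176 Avp-leading nuclei (77.3%) and 1 of 66 Oxt-leading nuclei (1.52%), beside 0.307% of oligodendrocyte-like nuclei. With every nucleus thinned to 2000 UMIs these shares were 43.8% and 0%, the latter being 0 of 66. Foxp1, a forkhead factor, was higher in Oxt-leading nuclei (log2 difference 0.59 ± 0.16 SE, edgeR adjusted p = 0.00759) and Rora, a nuclear receptor, was higher in Avp-leading nuclei (-0.56 ± 0.17, edgeR adjusted p = 0.0188). Of 5 tested factors of paraventricular and supraoptic development, 1 was thus higher, 2 were lower and 2 did not pass.

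A published signature of Oxt and Avp neurons from another study, taken without the genes of the rule, did not weigh on both classes alike. Of its 11 tested genes, 0 were higher in Oxt-leading and 7 were higher in Avp-leading nuclei, with a median log2 difference of -0.93. Maml3, which encodes a Notch co-activator, stood at 981, 916, 479 and 528 CPM in Avp-leading nuclei of libraries 1 to 4 and at 1005 and 884 CPM in the fasted ones. In Oxt-leading nuclei it stood at 70.9, 24.7, 32.5 and 42.6 CPM, and at 175 and 129 CPM, without overlap (log2 difference -3.44 ± 0.21, edgeR adjusted p = 1.27e-29). A Maml3 UMI was found in 97.2% of Avp-leading and 37.9% of Oxt-leading nuclei, beside 5.62% of oligodendrocyte-like nuclei, and after thinning in 70.5%, 16.7% and 5.65%. The cadherin Cdh9 (-1.70 ± 0.18), the metabotropic glutamate receptor Grm3 (-1.39 ± 0.18), the Wnt inhibitor Sfrp1 (-2.69 ± 0.66), the cell adhesion gene Adam23 (-0.66 ± 0.15) and Ern1 (-0.93 ± 0.27), the endoplasmic reticulum sensor IRE1, went the same way. The signature summed to between 2706 and 4199 CPM in Avp-leading and between 974 and 1966 CPM in Oxt-leading nuclei.

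Nos1 was higher in Oxt-leading and Glp1r in Avp-leading nuclei. Of 3 tested receptors of feeding signals Glp1r was the 1 that passed, and of 2 tested receptors of peptides and modulators Oprk1 was the 1 that passed. Nos1 (chr5:117781032-117958840, plus strand), the neuronal nitric oxide synthase, stood at 142, 222, 108 and 164 CPM in Oxt-leading nuclei of libraries 1 to 4 and at 189 and 148 CPM in the fasted ones. In Avp-leading nuclei it stood at 17.4, 5.87, 12.3 and 32.8 CPM, and at 29.0 and 24.2 CPM. No value overlapped (log2 difference 2.94 ± 0.28, edgeR adjusted p = 3.80e-16), and 69.7% of Oxt-leading against 13.1% of Avp-leading nuclei held a UMI, beside 0.818% of oligodendrocyte-like nuclei (25.8%, 3.98% and 0.785% after thinning). Glp1r (chr17:30901817-30940791, plus strand), the receptor of the gut hormone GLP-1, stood at 34.9, 58.7, 68.8 and 52.5 CPM in Avp-leading nuclei of libraries 1 to 4 and at 17.4 and 42.4 CPM in the fasted ones. In Oxt-leading nuclei it was 6.09 CPM in library 4 and 0 in the others, a ratio of 18.2 (95% counting interval 4.86 to 153) from 72 against 2 UMIs (edgeR adjusted p = 1.67e-06). A Glp1r UMI was found in 27.8% of Avp-leading and 3.03% of Oxt-leading nuclei, beside 0 of 978 oligodendrocyte-like nuclei, which allows a share with a UMI of up to 0.307% at the lower depth of those nuclei. After thinning the shares were 8.52% and 0 of 66. By in situ hybridization the study found Glp1r in a large part of the Oxt-expressing cells of the paraventricular nucleus. The low share in Oxt-leading nuclei therefore does not show that oxytocin neurons lack it.

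Oprk1 was higher in Oxt-leading and Pdyn in Avp-leading nuclei, and neither was called by DESeq2. Oprk1, the kappa opioid receptor gene, stood at 70.9, 49.4, 108 and 63.9 CPM in Oxt-leading nuclei of libraries 1 to 4 and at 117 and 73.9 CPM in the fasted ones. In Avp-leading nuclei it stood at 34.9, 35.2, 14.7 and 29.5 CPM, and at 17.4 and 18.2 CPM, below every Oxt-leading value (log2 difference 1.84 ± 0.33, edgeR adjusted p = 7.17e-06). Pdyn, the dynorphin precursor gene, was higher in Avp-leading nuclei in 5 of 6 libraries (-2.22 ± 0.68, edgeR adjusted p = 0.0251), and a Pdyn UMI was found in 22.2% of Avp-leading and 7.58% of Oxt-leading nuclei, beside 0.307% of oligodendrocyte-like nuclei. Galanin (Gal, -1.01 ± 0.21) and the substance P precursor (Tac1, -1.03 ± 0.31) were also higher in Avp-leading nuclei. Of 8 tested co-transmitter genes 1 was thus higher, 3 were lower and 4 did not pass, with a median of -0.58.

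Of 14 tested genes of precursor processing and release 1 was higher and 1 was lower, beside 2.35% and 2.75% of all genes. Pam, which encodes the enzyme that amidates peptides, was higher in Oxt-leading nuclei (0.65 ± 0.15, edgeR adjusted p = 0.00107), Pcsk2, a precursor convertase, was higher in Avp-leading nuclei (-0.79 ± 0.16, edgeR adjusted p = 0.000118), and 12 did not pass. Of 10 tested genes of osmosensing and firing, Kcnn2, a calcium-activated potassium channel gene, was higher in Oxt-leading nuclei (1.19 ± 0.35, edgeR adjusted p = 0.0188). Thrb was the 1 of 4 tested nuclear hormone receptors that passed (-1.16 ± 0.26). Ern1 was the 1 of 14 endoplasmic reticulum genes that passed, and Foxp1 the 1 of 3 genes used to part magnocellular from parvocellular oxytocin neurons. Neither of 2 tested fast transmitter genes, none of 3 activity genes, none of 82 ribosomal protein genes and none of 10 mitochondrial genes passed.

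The genes with the largest differences included several with no assigned function. On the Oxt-leading side A830018L16Rik (chr1:11414105-11975901, plus strand) stood at 762, 1210, 471 and 733 CPM in libraries 1 to 4 and at 1107 and 1552 CPM in the fasted ones, against 26.2, 17.6, 29.5 and 36.1 CPM, and 29.0 and 42.4 CPM, in Avp-leading nuclei (4.77 ± 0.21, edgeR adjusted p = 9.31e-44). It was followed by Galnt14, an enzyme that starts O-linked sugar chains (4.01 ± 0.32), the axonemal genes Dnah9 (3.80 ± 0.39) and Spag16 (3.32 ± 0.45), the glypican Gpc5 (3.25 ± 0.16), Shisa6, an auxiliary subunit of AMPA receptors (3.05 ± 0.38), and Thsd7b (2.72 ± 0.22). Gm12296 (2.97 ± 0.53) overlaps Dnah9 and Shisa6 on the other strand. The call for 1700034P13Rik (2.89 ± 0.35) rested on library 2, where it stood at 2173 CPM against at most 42.6 CPM in the others, and it was not tested without that library. On the Avp-leading side Rtn4rl1, a Nogo receptor family gene, was at least 10.5-fold higher, and the long noncoding Gm47710 at least 16.4-fold higher, with 0 UMIs in Oxt-leading nuclei (floor of 3 UMIs over the class). The guanine deaminase Gda gave a ratio of 22.9 (95% counting interval 7.68 to 113) and the phospholipase A2 receptor Pla2r1 one of 28.8 (4.97 to 1159). Gm44593, Pdzph1, Gm11418 and C130089K02Rik, which lies inside Maml3 on the same strand, completed the 10 genes with ratios of 22.8 to 47.1.

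Leaving out 1 library ended the call of 9 of the 36 genes named or listed here. A further 6 kept no test in at least 1 of these fits, since too few counts remained, so that 15 were lost or untested. Untested were 1700034P13Rik without library 2, Spag16, Gm12296, Oprk1, Pdyn and Sfrp1 without library 3, Spag16, 1700034P13Rik, Oprk1, Pdyn, Sfrp1 and Kcnn2 without library 4, and Gm11418 or Gm12296 without a fasted library. DESeq2 called 145 genes in place of 347. DESeq2 did not call 1700034P13Rik, Pla2r1, Pdzph1, Gm11418, Oprk1, Pam, Pdyn, Pcsk2, Tac1, Foxp1, Sfrp1, Thrb, Rora, Ern1, Kcnn2 and Gal (adjusted p from 0.0604 to 1). Without library 1 the adjusted p by edgeR was 0.0532 for Pam and 0.0651 for Pdyn. Without library 2 it was 0.0809 for Foxp1, 0.0930 for Rora and 0.141 for Kcnn2, without library 3 it was 0.193 for Tac1, 0.0627 for Rora and 0.0809 for Gal, and without library 4 it was 0.607 for Tac1, 0.0556 for Thrb, 0.182 for Ern1 and 0.0589 for Gal. Without fasted library 1 or 2 it was 0.0839 and 0.0622 for Rora and 0.129 and 0.144 for Kcnn2. With libraries 3 and 4 left out together 236 genes were called, Pdzph1, Thrb and Ern1 lost their call, and 13 genes were not tested, among them Nos1, Glp1r, Oprk1, Pdyn, Gal and Rtn4rl1. With libraries 1 and 2 left out 286 were called, Adam23, Pam, Rora and Ern1 lost their call, and 3 genes were not tested. Under the threshold of 50 per 10000 the fasted libraries held no Avp-leading nuclei, so the fasted pool gave no contrast between the classes. The calls of Pla2r1, Oprk1, Adam23, Pam, Pcsk2, Foxp1, Rora, Ern1 and Kcnn2 ended in this setting (edgeR adjusted p from 0.0516 to 0.627) and 5 genes were not tested. In the ad libitum fed libraries alone those of Pam, Pdyn, Tac1, Foxp1, Rora, Ern1 and Kcnn2 ended (0.0646 to 0.575). Without the nuclei of highest doublet score 289 genes were called, and Pdyn, Tac1 and Kcnn2 were not (0.0580 to 0.432).

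**Figure D3:**
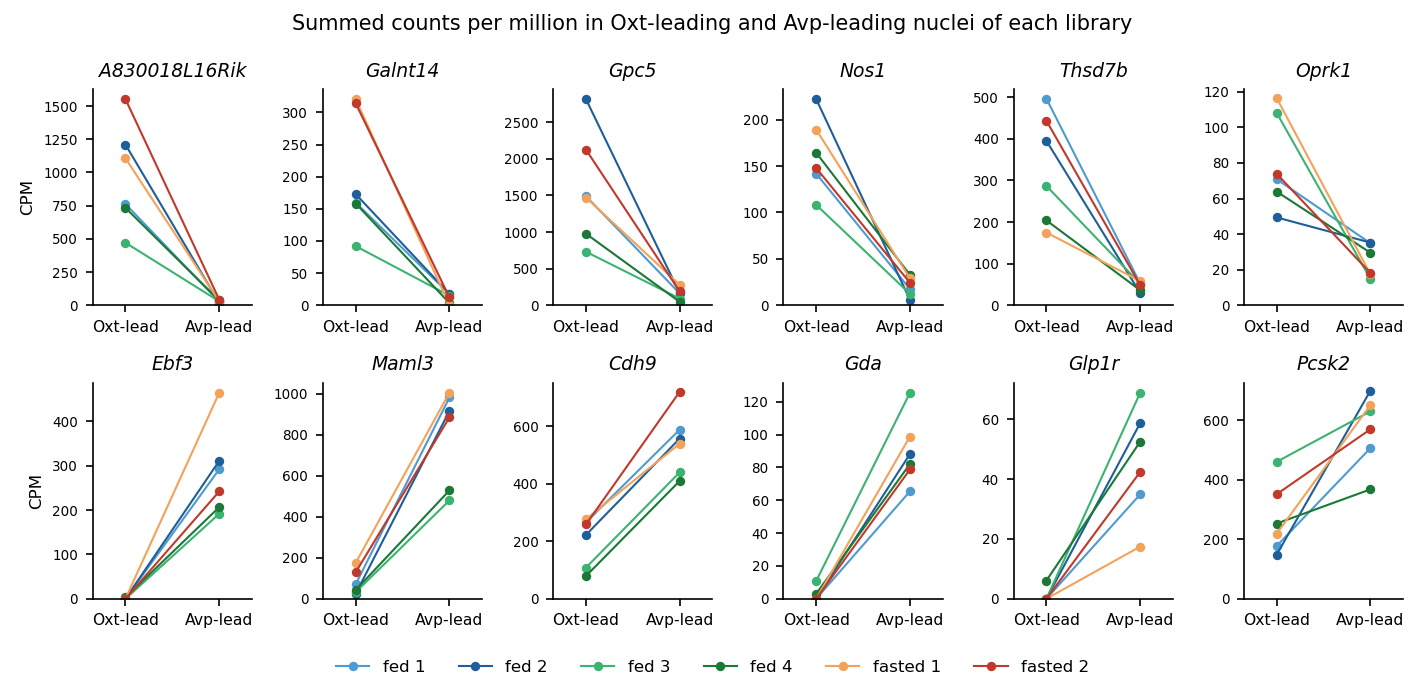
Levels in CPM, on linear axes from 0, of 12 genes that differed between Oxt-leading and Avp-leading nuclei, with a line joining the 2 classes of each library. Nos1 and Oprk1 are higher in the Oxt-leading class and Ebf3, Maml3 and Glp1r in the Avp-leading class in each of the 6 libraries.

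The magnocellular nuclei were then set against other neurons with both Otp and Sim1. The magnocellular rule asked for either factor, and 88 of its 257 nuclei held both, so the classes were not chosen alike on these genes. The comparison nuclei were 318 with at least 1 UMI each of Otp and Sim1, no Caprin2 and fewer than 10 Oxt and Avp UMIs per 10000. They numbered 31, 32, 107 and 105 in libraries 1 to 4 and 24 and 19 in the fasted ones. The 6 oligodendrocyte genes summed to 765 CPM in these nuclei of fasted library 1, against 164 CPM in its magnocellular nuclei, to 156 CPM in fasted library 2 and to between 58.8 and 93.5 CPM in libraries 1 to 4. The 2 genes of oligodendrocyte precursors summed to 72.6 CPM in fasted library 2 and to at most 8.45 CPM in the others. Without the 5% of nuclei with the highest doublet score, 18 of the 24 in fasted library 1 and 17 of the 19 in fasted library 2 were kept, and 1724 genes were called in place of 1714. Of 10976 genes tested by edgeR in the same way, 768 (7.00%) were higher and 946 (8.62%) were lower in magnocellular nuclei, and 1261 of these 1714 had the same direction in 6 of 6 libraries. The median log2 difference over all genes tested was -0.0041. DESeq2 called 692.

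Several features of the magnocellular nuclei that the rule did not use stood out in level. Of 12 tested genes of the published Oxt and Avp neuron signature 11 were higher and 0 were lower, with a median log2 difference of 2.31. Cdh9 stood at 513, 482, 350 and 226 CPM in libraries 1 to 4 and at 480 and 574 CPM in the fasted ones, against 53.9, 51.5, 25.9 and 27.7 CPM, and 106 and 36.3 CPM, in the other Otp and Sim1 neurons (3.35 ± 0.15, edgeR adjusted p = 8.11e-15). No values overlapped. Tns1, an actin-binding gene (3.75 ± 0.30), Nog, an antagonist of bone morphogenetic proteins (3.24 ± 0.28), Maml3 (3.07 ± 0.15), Fkbp11, a folding enzyme of the secretory pathway (2.91 ± 0.30), Ebf3 (2.33 ± 0.16) and Grm3 (2.29 ± 0.13) passed as well.

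Among developmental factors Pou3f2, also called Brn2, stood at 219, 227, 198 and 213 CPM in libraries 1 to 4 and at 308 and 356 CPM in the fasted ones. In the other Otp and Sim1 neurons it stood at 29.4, 9.35, 33.3 and 25.3 CPM, and at 38.0 and 31.1 CPM. The groups did not overlap (3.01 ± 0.16, edgeR adjusted p = 8.44e-14). A Pou3f2 UMI was found in 75.1% of magnocellular and 17.9% of the other nuclei, beside 0.818% of oligodendrocyte-like nuclei (36.6%, 5.35% and 0.628% after thinning). Arnt2, the partner of Sim1 (0.71 ± 0.14), and Foxp1 were also higher, while Sim2, at 1 UMI in all magnocellular nuclei, gave a ratio of 22.1 (95% counting interval 3.69 to 898) in favour of the other neurons. Of 7 tested factors 4 were higher and 1 was lower.

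The 2 convertases of hormone precursors differed in opposite directions. Pcsk1, the convertase PC1/3, stood at 191, 107, 137 and 198 CPM in magnocellular nuclei of libraries 1 to 4 and at 203 and 103 CPM in the fasted ones, against 34.3, 42.1, 33.3 and 27.7 CPM, and 21.1 and 20.7 CPM, in the other neurons (2.48 ± 0.16, edgeR adjusted p = 4.78e-12). Pcsk2, the convertase PC2, stood at 434, 588, 562 and 313 CPM, and at 515 and 493 CPM, against 1353, 1183, 1221 and 1094 CPM, and 1081 and 1312 CPM (-1.31 ± 0.11, edgeR adjusted p = 3.04e-10). Neither gene's groups overlapped. Of 16 tested granule genes 4 were higher and 7 were lower, with a median of -0.25. Cadps2, a priming factor of dense core vesicle release (1.07 ± 0.12), and Pam (0.53 ± 0.12) were higher, and the granins Scg2 (-1.41 ± 0.13), Chga (-1.17 ± 0.18) and Chgb (-0.77 ± 0.17) were lower.

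Co-transmitter genes differed in both directions. Th, the first enzyme of catecholamine synthesis, stood at 44.4, 46.3, 39.9 and 58.0 CPM in magnocellular nuclei of libraries 1 to 4 and at 54.6 and 29.99 CPM in the fasted ones, against 0 to 4.68 CPM in the other neurons (4.02 ± 0.35, edgeR adjusted p = 1.36e-09). A Th UMI was found in 29.96% of magnocellular and 2.52% of the other nuclei, beside 0.716% of oligodendrocyte-like nuclei (7.78%, 0.314% and 0.628% after thinning). Pdyn (2.60 ± 0.39), Nos1 (1.94 ± 0.24) and Gal (1.54 ± 0.14) were also higher. Trh, the thyrotropin-releasing hormone gene, stood at 235, 257, 1704 and 1398 CPM in the other neurons of libraries 1 to 4 and at 59.1 and 187 CPM in the fasted ones, above the magnocellular value of the same library in each case (-4.23 ± 0.17, edgeR adjusted p = 6.12e-16). The peptide genes Adcyap1 (-2.94 ± 0.28), Penk (-2.28 ± 0.20) and Tac1 (-1.12 ± 0.18) were lower too. Crh gave 3 UMIs in magnocellular nuclei and 60 in the other neurons, all 60 from libraries 3 and 4. Of 14 tested co-transmitter genes 4 were higher and 7 were lower, with a median of -0.48, and Slc17a6 was the 1 of 4 fast transmitter genes that passed (-1.31 ± 0.14). A marker of another neuron moved with the comparison. Pomc of the arcuate nucleus stood at 37.6, 55.6, 33.5 and 91.3 CPM in magnocellular nuclei of libraries 1 to 4 and at 27.3 and 17.1 CPM in the fasted ones, against 24.5, 32.7, 18.5 and 19.0 CPM, and 8.45 and 20.7 CPM, in the other neurons (1.46 ± 0.25, edgeR adjusted p = 8.24e-05), a call that ended without library 4 (edgeR adjusted p = 0.120). Its part in the other results was not tested.

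Receptors, channels and secretory pathway genes followed. Of 7 tested receptors of feeding signals, Glp1r was higher (4.23 ± 0.52, edgeR adjusted p = 4.92e-07) and the calcitonin receptor Calcr was lower (-2.93 ± 0.36). Of 7 tested receptors of peptides and modulators, Oprk1 was higher (2.20 ± 0.27) and Oprm1, the mu opioid receptor gene (-2.15 ± 0.23), Cnr1, the cannabinoid receptor gene (-1.52 ± 0.23), and Prlr were lower. Of 6 tested nuclear hormone receptors 2 were lower and 0 were higher, the glucocorticoid receptor Nr3c1 (-1.58 ± 0.24) and the mineralocorticoid receptor Nr3c2 (-0.53 ± 0.13). Among 11 tested genes of osmosensing and firing, the potassium channel subunit Kcnmb4 (2.53 ± 0.19) and the chloride importer Slc12a2 (0.95 ± 0.19) were higher, and Kcnn2 (-1.96 ± 0.15), the sodium channel Scn7a (-2.04 ± 0.55) and the chloride exporter Slc12a5 were lower. All 5 genes used to part magnocellular from parvocellular oxytocin neurons passed, with Calb1, Kcnmb4 and Foxp1 higher and Cnr1 and Reln lower. Of 15 tested genes of the endoplasmic reticulum 6 were higher and 0 were lower, with a median of 0.21, led by the stress sensors Ern1 (2.23 ± 0.21) and Eif2ak3 (1.34 ± 0.22). The other 4 were Xbp1, Atf6, Dnajb9 and Sdf2l1, and none of these 4 was called without library 3 or without library 4. The activity genes Gem (2.89 ± 0.33) and Jun (1.08 ± 0.22) were higher among 8 tested, and the glucocorticoid-responsive genes Zbtb16 (-2.17 ± 0.38) and Sgk1 (-1.65 ± 0.28) were lower among 8 tested, a list of which several genes were chosen on these libraries by the study. Of 84 ribosomal protein genes 6 were higher and 0 were lower, a share higher that is near the 7.00% of all genes.

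At the extremes, the noncoding Gm32341 was at least 30.9-fold higher in magnocellular nuclei, with 62 UMIs against 0. Icam2, an adhesion molecule known from endothelium, gave a ratio of 56.8 (95% counting interval 9.60 to 2303) beside endothelial and mural markers at 0 in 5 of 6 libraries. Pla2r1 (ratio 44.1), Pdzph1 (41.9), Nnmt, which methylates nicotinamide (29.2), Snx31 (25.9), Gm47710 (log2 difference 5.09 ± 0.44), Gm43122 (4.91 ± 0.38), the endocytic receptor Ly75 (4.66 ± 0.48) and Calcrl, a receptor for CGRP and adrenomedullin (4.34 ± 0.57), were the others. On the other side the homeobox gene Meis1 was at least 12.5-fold lower, Fibin at least 8.69-fold, Defb1 at least 8.91-fold and Gm43948 at least 6.24-fold. Ucn3, urocortin 3, was at least 25.4-fold lower, but its 114 UMIs came from libraries 3 and 4. Gm28526 (ratio 147), Mir217hg (92.9), the CGRP gene Calca (85.6), the zinc finger gene Sall3 (43.5) and Hmcn1 (37.4) had 1 or 2 UMIs in magnocellular nuclei.

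The calls of 14 of the 83 genes named or listed for this comparison ended when 1 library was left out, and with those that went untested in such a fit 31 were lost or untested. The 14 whose calls ended were Atf6, Cadps, Dnajb9, Nts, Pam, Pomc, Prlr, Racgap1, Scg5, Sdf2l1, Sfrp1, Slc12a5, Sst and Xbp1. The range of the adjusted p by edgeR over the lost calls was 0.0509 to 0.174 without library 1 (Scg5, Cadps, Racgap1, Sst), 0.0858 to 0.113 without library 2 (Scg5, Xbp1, Racgap1, Sst), 0.0535 to 0.794 without library 3 (Atf6, Slc12a5, Nts, Sfrp1, Cadps, Xbp1, Dnajb9, Prlr, Sdf2l1) and 0.0745 to 1 without library 4 (Pam, Atf6, Scg5, Sfrp1, Cadps, Xbp1, Pomc, Dnajb9, Sdf2l1, Sst). It was 0.0513 to 0.149 without fasted library 1 (Atf6, Scg5, Nts, Sst) and 0.0730 to 0.0973 without fasted library 2 (Atf6, Scg5, Sst). With libraries 3 and 4 left out together 870 genes were called, Calb1, Chga, Jun, Sv2a and Tac1 also lost their call, and 30 of the 83 were not tested, Ucn3, Crh, Glp1r, Gal and Pdyn among them. Without library 3 alone 18 were not tested and without library 4 alone 17 were not. Under the threshold of 50 per 10000 the calls of Eif2ak3, Arnt2, Nr3c2 and Slc12a2 ended besides those of 7 of the 14. In the ad libitum fed libraries alone the call of Nr3c2 ended besides those of 5 of the 14. Without the nuclei of highest doublet score that of Sdf2l1 ended. DESeq2 did not call 28 of the 83 (adjusted p from 0.0559 to 1), namely Ucn3, Fibin, Gm43948, Scn7a, Pdyn, Crh, Jun, Tac1, Nr3c2, Sim2, Glp1r, Slc12a2, Sv2a, Sv2c and all 14 above.

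**Figure D4:**
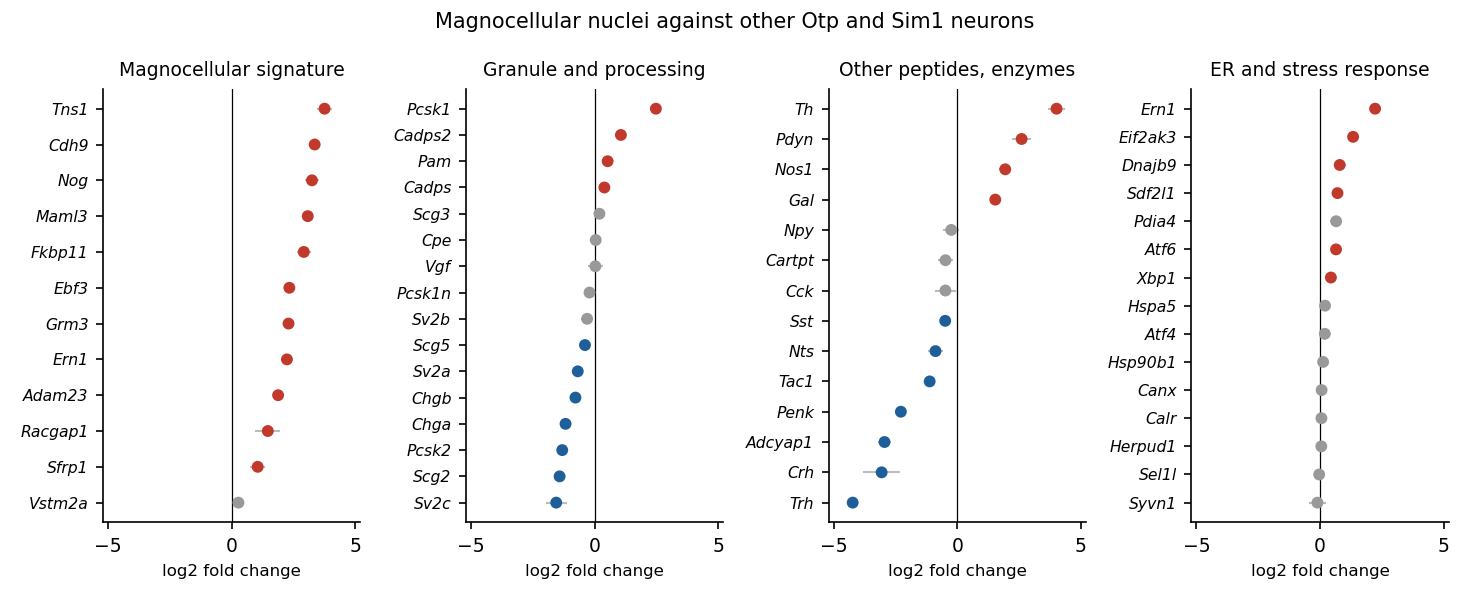
Log2 difference between magnocellular nuclei and the other Otp and Sim1 neurons for the tested genes of 4 lists, with the standard error as a bar. Red points are higher and blue points lower at an adjusted p below 0.05 by edgeR, and grey points did not pass. Of the signature genes 11 of 12 are red, and the granule and peptide lists hold both colours.

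Some genes entered both comparisons. Of the 187 genes higher in Avp-leading nuclei, 105 were higher and 26 were lower in magnocellular nuclei than in the other Otp and Sim1 neurons. Of the 160 genes higher in Oxt-leading nuclei, 35 were higher and 66 were lower. The comparisons share the magnocellular nuclei, so these counts are given as a description.

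Fasting was examined in the summed magnocellular nuclei with the pool as the sample. Of 8492 genes tested, 0 (0.00%) passed an adjusted p of 0.05 by edgeR with the largest p over the pairings, and 179 had an unadjusted p below 0.05, 15 of them higher after the fast. DESeq2 called 0, with 257 at an unadjusted p below 0.05. On simulated data with planted changes the same procedure recovered none of them for this comparison, at either fold size tried, so the absence of calls carries no information on whether genes changed with the fast. The result turned on which ad libitum fed libraries share a pool. Pairing library 1 with 2 gave 0 calls, while pairing 1 with 3 gave 1886 (656 higher, 1230 lower) and pairing 1 with 4 gave 1818 (615 higher, 1203 lower). With 1 fasted pool the spread came from the ad libitum fed pools alone.

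As a description, 1286 genes (15.1%) were higher in each fasted library than in any of libraries 1 to 4, and 959 genes (11.3%) were lower in each fasted library than in any of them. Such genes are said below to lie above or below. The hormone genes lay below. Summed over the nuclei, Oxt stood at 1279, 2005, 37835 and 60480 CPM in libraries 1 to 4 and at 959 and 921 CPM in the fasted ones, and Avp stood at 3576, 2848, 30195 and 22052 CPM, and at 1439 and 1534 CPM. For both hormones the fasted libraries lay nearer to libraries 1 and 2 than libraries 3 and 4 did. Since the rule sets a floor on these transcripts, the values carry no test.

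The granule and secretory pathway genes had members on both sides. Of 15 tested granule genes Cpe, Pcsk1n, Scg2, Chga and Chgb lay below and Cadps and Sv2b above, and 0 passed the test, with a median log2 difference of -0.75 beside -0.027 over all genes tested. Scg2, a granin, stood at 95.7, 69.5, 369 and 433 CPM in libraries 1 to 4 and at 46.8 and 4.28 CPM in the fasted ones (-3.36 ± 1.22, edgeR adjusted p = 1). Of 14 endoplasmic reticulum genes Xbp1, Dnajb9, Calr, Canx and Sdf2l1 lay below and the sensors Atf6 and Eif2ak3 above, with a median of -0.999. Atf6 stood at 71.8, 69.5, 55.9 and 58.0 CPM, and at 144 and 150 CPM (1.09 ± 0.47, edgeR adjusted p = 1). Of 10 tested co-transmitter genes Pdyn, Gal, Cartpt, Penk, Sst and Npy lay below and 0 above, with a median of -3.50. Pdyn stood at 20.5, 27.8, 25.6 and 37.7 CPM, and at 7.80 and 4.28 CPM. The 15 genes of the list together summed to 256, 278, 1126 and 1518 CPM in libraries 1 to 4 and to 203 and 146 CPM in the fasted ones, so that libraries 3 and 4 were far above the rest and libraries 1 and 2 only somewhat above the fasted ones. In all other neuronal nuclei libraries 3 and 4 were also highest and the fasted ones lowest, at 328, 344, 1632 and 1621 CPM, and 182 and 178 CPM, for this list. Their granule list summed to 3821, 3893, 7452 and 7353 CPM, and to 3410 and 3334 CPM, and their endoplasmic reticulum list to 699, 718, 1677 and 1671 CPM, and to 611 and 604 CPM. The difference between magnocellular and other neurons in these shifts was not tested. Of 83 ribosomal protein genes 66 lay below, with a median of -2.80, and of 10 mitochondrial genes 7 lay below. The part of these differences between libraries in the hormone and granule values was not tested.

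Among 5 developmental factors Pou3f2, Arnt2 and Foxp1 lay above and 0 below (median 0.53). Pou3f2 values are given above, and Foxp1 stood at 390, 417, 241 and 298 CPM in libraries 1 to 4 and at 464 and 596 CPM in the fasted ones. Of 9 genes of osmosensing and firing Trpv2, Kcnma1, Cacna1c and Cacna1d lay above, and Slc12a5 below. Nr3c1 lay below among 5 nuclear hormone receptors and Cnr1 among 6 receptors of peptides. Among 11 tested signature genes Tns1 lay above and Nog below, among 4 tested activity genes 1700016P03Rik lay above, and none of 3 receptors of feeding signals, 2 fast transmitter genes or the 1 glucocorticoid-responsive gene tested lay apart. All 14 genes of the glucocorticoid-responsive list, most too low to be tested, summed to 92.3, 130, 125 and 129 CPM in libraries 1 to 4 and to 176 and 184 CPM in the fasted ones, without overlap, and several were chosen on these libraries by the study. In all other neurons they summed to 224, 221, 206 and 203 CPM, and to 382 and 382 CPM. Of 2 tested oligodendrocyte genes Mbp lay above, and the part of this marker in the magnocellular sums was not tested. None of the genes above passed the test, which on simulated data could not call any.

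The genes with the lowest p after the fast were mostly lower. Gsg1l, an auxiliary subunit of AMPA receptors, was the exception, at 10.3, 32.4, 12.8 and 23.2 CPM in libraries 1 to 4 and 74.1 and 81.4 CPM in the fasted ones (1.91 ± 0.47, edgeR adjusted p = 1). Smim18 stood at 41.0, 37.0, 52.7 and 44.9 CPM, and at 7.80 and 0 CPM, and the mitochondrial ribosome gene Mrpl57 at 65.0, 50.9, 71.9 and 68.1 CPM, and at 7.80 and 17.1 CPM. In these 2 genes libraries 3 and 4 lay among or beside libraries 1 and 2. Hbb-bs, a globin gene of red blood cells, was at least 6.80-fold lower, with 76 UMIs against 0. Smim26, Higd2a, Cldnd1, Grpel1, mt-Nd5 and Dynlt3 were the others, all lower and all with an adjusted p of 1 by edgeR.

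**Figure D5:**
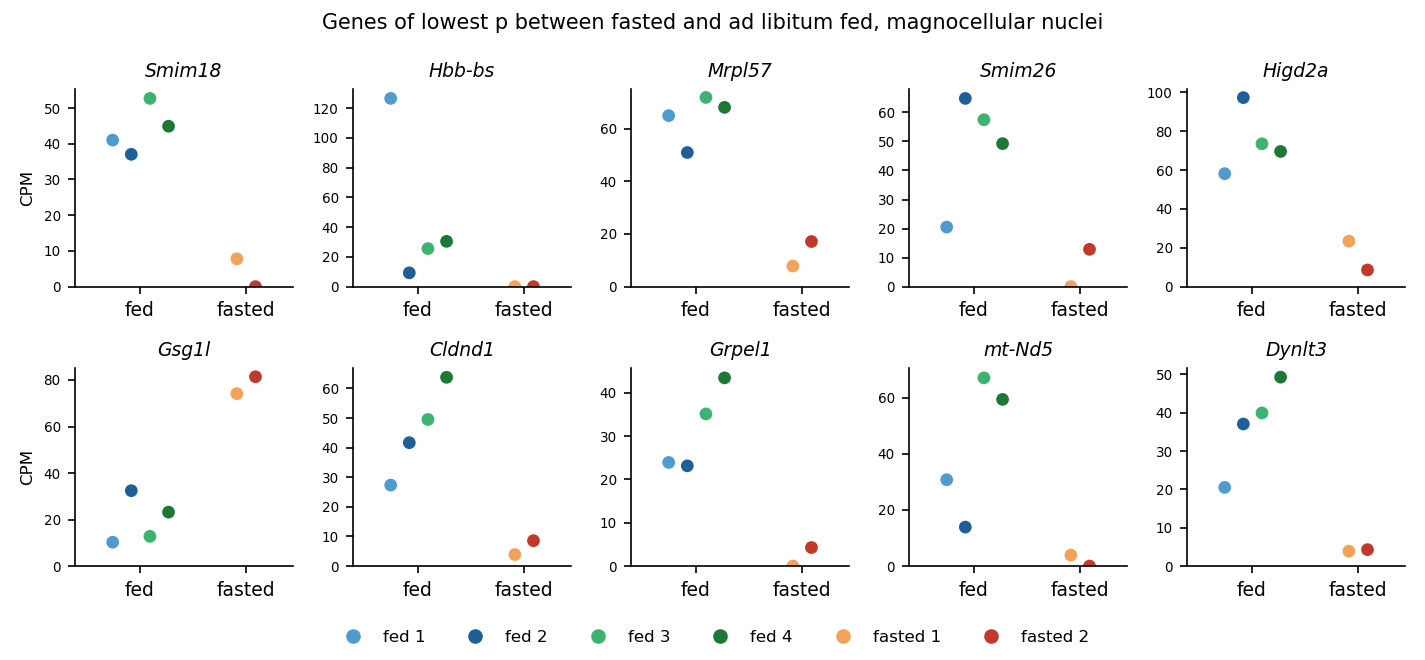
Levels in CPM, on linear axes from 0, of the 10 genes with the lowest p between fasted and ad libitum fed magnocellular nuclei, 1 point a library. Gsg1l is higher in both fasted libraries and the other 9 genes are lower.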

How the data were processed

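Raw UMI counts per gene and nucleus were deposited by the authors, who made them with Cell Ranger 5.0.1 on mm10 according to their processing notes, for 55399 features in 6 libraries. The values were neither normalized nor pooled across libraries. The nuclei, gene lists and tests were chosen with earlier results of these data known. Counts of the selected nuclei were summed by library and class, then by pool, and tested with edgeR 4.0.16 (quasi-likelihood, TMM, at least 10 counts in at least 2 sums), with the pool as a block between classes. The largest p over the 3 possible pairings of the ad libitum fed libraries was adjusted by Benjamini-Hochberg. Where nothing says that libraries are separate mice, p-values refer to pools or tubes and not to mice. The spread that edgeR used for a gene also draws on the other genes tested. A very small p therefore does not rest on that gene's own spread between the few pools alone. Genes named were the 10 highest and 10 lowest log2 differences past an adjusted p of 0.05 with 1 sign in every library where both groups had counts, or, for the fast, the 10 lowest p, plus the members of the lists that passed. Alternatives were DESeq2 1.42.0, other normalization, filters, units, pairings, cuts and left-out libraries. Doublet scores came from Scrublet in scanpy 1.11.5, and no nucleus was removed for them. Ddit3 was left out of its list because the symbol names 2 features. Some list members are not reported here and were left out of the list counts. The fits were tested on simulated data, where most large planted changes but far from all small ones were recovered between classes, and none for the fast. Coordinates are from GENCODE M21 (GRCm38), which held 55139 of the 55399 features.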

Additional observations from a re-analysis of the deposited data

Results flagged for a closer look

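3 genes had 1 ad libitum fed library far from the other 3 in the magnocellular nuclei, by a gap that passed Dixon's 95% critical value for 4 samples. Nos1 stood at 94.2 CPM in library 4, against 41.0 to 46.3 CPM in the others, and library 4 also had the highest share of Oxt-leading nuclei, at 42.1%. Thrb stood at 178 CPM in library 1, against 92.6 to 104 CPM. Sim2 stood at 1.60 CPM, a single UMI, in library 3 and at 0 in the others. Over the 83 groups examined, chance flags about 1 in 20, or 4.15.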

How the results depend on the processing

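The count for the fast was 0 in most settings and changed with the model of the pools. It was 73, all lower, without a filter on low counts, 1886 and 1818 for the pairings of library 1 with 3 and of library 1 with 4, and 0 each time 1 library was left out. After the data had been seen, libraries 1 and 2 were left out, which gave 1984 calls (615 higher), and then libraries 3 and 4, which gave 231 (61 higher), with the remaining 2 taken as separate pools. The replicate block gave 198 calls (42 higher), but the labels do not say that the numbers pair libraries. Samples of the same number did not deviate together (correlations of -0.00592 and -0.0179 across genes). The deviations of libraries 1 and 2 hold their large distance from libraries 3 and 4, so these correlations cannot exclude a pairing.

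Between Oxt-leading and Avp-leading nuclei the 347 calls became 145 by DESeq2, 567 and 610 with the pairings of library 1 with 3 and with 4, 187 under the threshold of 50 per 10000, 198 in the ad libitum fed libraries alone and 242 to 304 with 1 library left out. Against the other Otp and Sim1 neurons the 1714 calls became 692 by DESeq2, 1127 under the threshold of 50, 870 without libraries 3 and 4, and 1120 to 1577 with 1 library left out, the lowest without library 3. None of the 36 and 83 genes of these comparisons changed direction under the alternatives that tested them.

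The share of magnocellular nuclei differed by -0.481 points under the threshold of 50, which acts on the hormone level itself, and by -0.276 points with all nuclei as the denominator. With 1 library left out it differed by -0.117 to -0.220 points. The Oxt-leading share differed by 64.1 points under the threshold of 50, where the fasted libraries kept 4 nuclei, and by -6.75 to 1.88 points with 1 library left out. For the fast, genes that did not pass changed direction in some settings. On the log2 scale Trh was 0.0497 with the replicate block, Npy 0.0231 and Th 0.39 under the threshold of 50, Th between -0.77 and 0.10 with 1 library left out, and Nos1 -0.0064 without a filter, between -0.0556 and 0.56 with 1 library left out (negative without library 1 or 3) and -0.15 without libraries 1 and 2. The causes were not tested. The 66 Oxt-leading nuclei and the 55 fasted nuclei limit the depth of every value that rests on them.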

Other observations

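Within the magnocellular nuclei, depth differed between the classes. The median Oxt-leading nucleus held 10656 UMIs and the median Avp-leading nucleus 7610.5. All had passed the Caprin2 condition of the rule, whose part in this difference was not tested. The 15 nuclei between the classes held a median of 8623 UMIs and of 33.99 Oxt and Avp UMIs per 10000. In library 3 the 4 nuclei between the classes held a median of 900 per 10000, above the 489 of all its magnocellular nuclei. In library 4 the 6 such nuclei held 39.9 per 10000, below its 557.

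Nuclei that met the hormone threshold without the other markers were common in libraries 3 and 4. Of the neuronal nuclei with at least 10 Oxt and Avp UMIs per 10000, 46, 41, 151 and 179 in libraries 1 to 4 and 8 and 10 in the fasted libraries carried neither Caprin2 nor Otp or Sim1, and they were not analysed as magnocellular.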
